A study of Mus musculus with 2 samples.

Results

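The enzymes described here build nucleotides from small precursors and keep folate supplied with the carbon units that this needs. They are 30 named genes, all found among the 31053 genes of both count tables, and all 30 passed the minimum of 500 UMIs over both libraries. A UMI (unique molecular identifier) tags 1 captured RNA molecule. The genes were listed by name along the pathways and not by any measured value, though earlier results of these data were known at that time.

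The cells were sorted cKit+ Cd11b- progenitors of a mouse leukemia that the labels call I1DN. Kit is a receptor of blood progenitors and Cd11b, made from Itgam, is a myeloid surface protein. The mice had received either vehicle or AG-120 (ivosidenib), which inhibits mutant IDH1, for 5 days. Each treatment has 1 droplet library, and the labels give no genotype behind the name I1DN, no age and no number of animals. Every difference therefore compares 2 libraries without a replicate check, no p-value was computed, and all intervals are 95% intervals that cover counting error only.

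Pyrimidine synthesis joins carbamoyl phosphate and aspartate into a ring, adds a ribose phosphate from PRPP (phosphoribosyl pyrophosphate) and ends in UTP and CTP. Purine synthesis builds its ring directly on PRPP up to IMP, which is then turned into AMP or GMP. Ribonucleotide reductase makes the deoxy forms that DNA needs, and folate carries the carbon units that enter purines and thymidylate. Dividing blood progenitors are known to depend on these routes, several of which are targets of antileukemic drugs.

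After filtering, 3914 vehicle and 3756 AG-120 cells remained, with a median of 13156.5 and 25681.5 UMIs a cell. Before filtering, 20 cell barcodes occurred in both libraries, and 19 vehicle and 18 AG-120 cells with such a barcode were kept. Kit stood at 58.3 and 30.4 CPM, UMIs scaled to a common library total, and Itgam at 5.51 and 0.937 CPM. The libraries differ in the makeup of their cells. A list of 10 erythroid genes summed to 129 CPM in the vehicle library and 1790 CPM in the AG-120 library. The sums for 8 megakaryocyte genes were 419 and 47.0 CPM, with Gp6 at 0 in the AG-120 library, and those for 5 primary granule genes were 2959 and 973 CPM. The 6 neutrophil genes summed to 1841 and 513 CPM, and Cd34, a gene of early progenitors, to 302 and 14.7 CPM. Lists of T or NK cell genes (368 and 105 CPM) and of B cell genes (25.2 and 6.13 CPM) had lower sums under AG-120, and Cd3e, Cd4 and Ms4a1 were at 0 in both libraries. The former sum was almost wholly Nkg7 (366.7 and 104.5 CPM) and the latter Cd79b (25.05 and 5.91 CPM). The 5 monocyte genes summed to 10.9 and 14.5 CPM. Only Cx3cr1 was higher under AG-120 (3.005 and 12.7 CPM), while Csf1r (5.17 and 0.853 CPM), Ccr2, Ly86 and Fcgr1 were all lower. The 6 genes of basophils, mast cells and eosinophils summed to 400.3 and 195 CPM, with Cpa3 at 372 and 69.7 CPM and Prg2 at 20.7 and 110.2 CPM. These sums move with the treatment, and their part in the enzyme values over all cells was not tested.

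The promoters of 3 enzymes are shown first because Rrm1, Rrm2 and Tyms varied with S phase and mitosis genes more than every other member but Mthfd2 in the vehicle library. Rrm1 and Rrm2 encode the large and the small subunit of ribonucleotide reductase, and Tyms makes thymidylate. Each sequence is the 250 bases before the RefSeq start site in GRCm38.p6, 5′ to 3′ on the strand of the gene. Capitals mark the letters CCAAT, in that orientation in these genes, or CACGTG, an E-box.
Rrm1, chr7:102441445-102441694, plus strand: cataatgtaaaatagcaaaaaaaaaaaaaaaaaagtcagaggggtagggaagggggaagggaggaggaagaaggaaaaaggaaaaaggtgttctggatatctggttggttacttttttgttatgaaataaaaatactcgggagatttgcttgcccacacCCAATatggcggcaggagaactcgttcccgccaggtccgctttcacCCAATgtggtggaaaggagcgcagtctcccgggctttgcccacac
Rrm2, chr12:24708004-24708253, plus strand: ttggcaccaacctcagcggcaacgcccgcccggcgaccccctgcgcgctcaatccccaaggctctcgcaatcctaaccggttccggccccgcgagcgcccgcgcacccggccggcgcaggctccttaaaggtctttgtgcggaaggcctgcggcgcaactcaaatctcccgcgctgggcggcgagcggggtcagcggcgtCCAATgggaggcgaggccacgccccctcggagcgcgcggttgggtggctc
Tyms, chr5:30073626-30073875, minus strand: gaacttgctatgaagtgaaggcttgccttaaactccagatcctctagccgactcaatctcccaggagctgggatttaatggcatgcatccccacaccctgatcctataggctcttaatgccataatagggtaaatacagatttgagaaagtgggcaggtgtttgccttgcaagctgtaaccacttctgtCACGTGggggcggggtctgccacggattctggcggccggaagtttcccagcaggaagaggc

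RefSeq windows of 300 bases, 250 before to 50 after a start site, were matched for 27 of the 30 members by symbol. Dhodh, Rrm2b and Pfas had no match. Searched on both strands, CACGTG stood in 6 of the 33 windows of these members (18.2%), from Tyms, Nme1, Paics, Atic and Impdh2, and in 7.15% of all 32841 windows. CCAAT stood in 11 of the 33 (33.3%) and in 37.4% of all windows. The E2F letters, which are TTT, then a pair of letters each G or C, then CGC, stood in 2 of the 33 (6.06%), from Prps2 and Ppat, and in 2.27% of all windows. A match of letters is a description and not a binding site.

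Over all kept cells, 20 of the 30 enzymes were higher in the AG-120 library by 1.2-fold or more, 3 were lower, and 7 stayed under that fold. Of all 9419 measured genes 28.8% were higher and 42.2% were lower by the same rule. The median log2 ratio of the members was 0.54, beside −0.12 over all measured genes. At 1.5-fold, 14 members were higher, where 15.6% of all genes were, and 3 were lower, where 27.5% were. When the levels of the lineage states described further on were weighted by the cell shares of the vehicle library, 14 members were higher (22.3% of all genes) and 2 lower (32.6%), with a median of 0.24. Under that weighting the log2 ratio of Rrm2b was 0.15, against −0.62 over all cells, and those of Ppat and Mthfd1l were −0.0059 and −0.0089. The megakaryocyte state, with 7 AG-120 cells, was left out of the weighting. The largest weight fell on the Cd34 state, 44.6% of the vehicle cells, which held only 39 AG-120 cells. Those 39 cells gave 8 Rrm2b, 29 Ppat and 16 Mthfd1l UMIs.

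**Figure D1:**
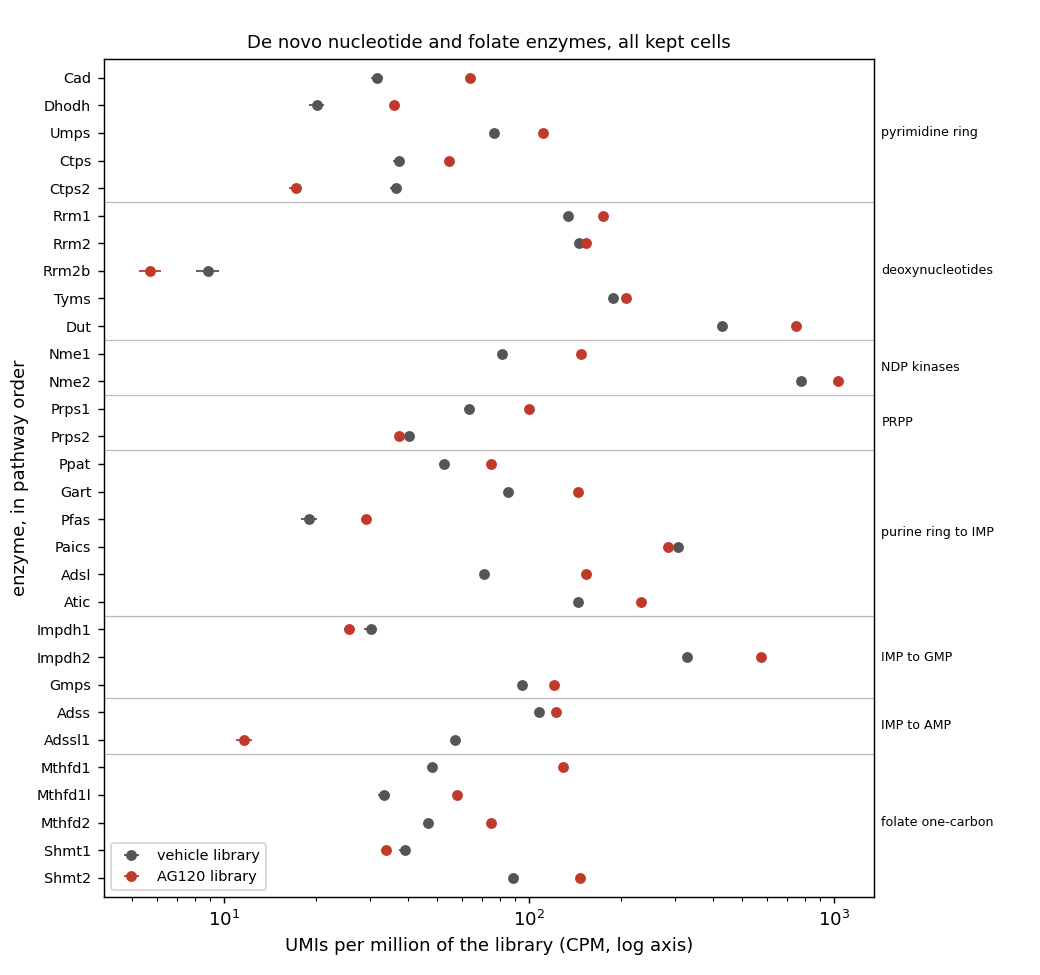
Level of each enzyme in CPM (log axis) in pathway order, for all kept cells of the vehicle and AG-120 libraries; bars are 95% Poisson intervals. Mthfd1, Adsl and Cad lie at least 2-fold to the right in the AG-120 library, while Adssl1 and Ctps2 lie to its left.

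Along the pyrimidine ring, 4 of 5 enzymes were higher in the AG-120 library (28.8% of all genes) and 1 was lower (42.2%). Cad, the fused enzyme of the opening steps, stood at 31.7 CPM in the vehicle and 64.0 CPM in the AG-120 library, a ratio of 2.02 (1.91 to 2.13). Dhodh, the mitochondrial dihydroorotate dehydrogenase, went from 20.1 to 36.0 CPM (ratio 1.79, 1.68 to 1.92). Umps, which attaches the ring to PRPP and makes UMP, went from 76.5 to 111 CPM (ratio 1.45, 1.399 to 1.502). The AG-120 library was thus the higher library at each step up to UMP. The CTP synthases went opposite ways. Ctps stood at 37.3 and 54.6 CPM (ratio 1.46, 1.39 to 1.54), and Ctps2 at 36.5 and 17.1 CPM, lower under AG-120 by 2.13-fold (1.99 to 2.27).

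Of 5 enzymes of deoxynucleotides, Rrm1 and Dut were higher over all cells (28.8% of all genes) and Rrm2b was lower (42.2%). Rrm2 and Tyms stayed under the fold. Rrm2 stood at 146 CPM in the vehicle and 154 CPM in the AG-120 library, a ratio of 1.05 (1.03 to 1.08). Tyms stood at 188 and 208 CPM (ratio 1.11, 1.08 to 1.13). Rrm1 stood at 134 and 175 CPM, a ratio of 1.31 (1.27 to 1.34), which passed it. Dut, which breaks down dUTP and so keeps uracil out of DNA, stood at 430 and 747 CPM (ratio 1.74, 1.72 to 1.77). Rrm2b, the p53-inducible small subunit that serves DNA repair, stood at only 8.82 and 5.72 CPM and was lower under AG-120 by 1.54-fold (1.36 to 1.74). The nucleoside diphosphate kinases Nme1 and Nme2 were both higher in the AG-120 library. Nme1 stood at 81.3 and 148 CPM (ratio 1.82, 1.76 to 1.88) and Nme2 at 779 and 1027 CPM (ratio 1.32, 1.30 to 1.33). These are near-identical neighbouring genes, so their split of reads is uncertain. The read-through model Gm20390 that covers both held 25 and 21 UMIs.

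PRPP for either pathway comes from Prps1 and Prps2. Prps1 stood at 63.3 CPM in the vehicle and 100.1 CPM in the AG-120 library (ratio 1.58, 1.52 to 1.64), and Prps2 at 40.2 and 37.5 CPM (ratio 0.932, 0.884 to 0.983). The former was the higher in the AG-120 library while the latter stayed under the fold.

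From PRPP to IMP, 5 of 6 enzymes were higher in the AG-120 library (28.8% of all genes) and the median log2 ratio was 0.66. Ppat, which commits PRPP to purines, stood at 52.4 CPM in the vehicle and 74.8 CPM in the AG-120 library (ratio 1.43, 1.37 to 1.49). Gart, a fused enzyme with a folate-using step, stood at 85.3 and 144 CPM (ratio 1.69, 1.63 to 1.75). Pfas, which adds an amide nitrogen, stood at 19.0 and 29.3 CPM (ratio 1.54, 1.44 to 1.66). Each of these early enzymes was higher in the AG-120 library. Adsl, which acts both before IMP and on the way to AMP, stood at 71.2 and 153 CPM (ratio 2.15, 2.08 to 2.23). Atic, the bifunctional enzyme that closes the ring with a folate carbon unit, stood at 144 and 233 CPM (ratio 1.62, 1.58 to 1.66). Paics was the exception, at 308 and 284 CPM (ratio 0.924, 0.907 to 0.942). Ppat and Paics are transcribed head to head on chromosome 5 from start sites 271 bases apart in GENCODE, and their gene models overlap on opposite strands. Use of strand in the counting is not given in the sources used here. The same limit applies to Ctps2, Impdh2, Shmt1 and Shmt2, whose models overlap S100g, Ndufaf3, Smcr8 and Ndufa4l2 on the other strand.

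Below IMP, 2 of 3 enzymes toward GMP were higher in the AG-120 library (28.8% of all genes). Of 2 toward AMP 0 were higher and 1 was lower (42.2%). Impdh2, the main IMP dehydrogenase of dividing cells, stood at 329 CPM in the vehicle and 577 CPM in the AG-120 library (ratio 1.76, 1.73 to 1.79). Impdh1 stood at 30.2 and 25.7 CPM (ratio 0.850, 0.799 to 0.905), inside the fold. Gmps, which completes GMP, stood at 94.9 and 121 CPM (ratio 1.27, 1.23 to 1.32). Of the adenylosuccinate synthases, Adss stood at 108 and 122 CPM (ratio 1.13, 1.10 to 1.17). Adssl1, known as the muscle isozyme, stood at 57.3 and 11.6 CPM and was lower under AG-120 by 4.93-fold (4.60 to 5.28), farther from 1 than any other member. Adssl1 (ENSMUSG00000011148) lies at chr12:112620045-112641360 on the plus strand (GRCm38).

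Of the folate enzymes, 4 of 5 were higher in the AG-120 library (28.8% of all genes), with a median log2 ratio of 0.72. Mthfd1 (ENSMUSG00000021048), the cytosolic enzyme that interconverts folate carbon units, stood at 48.2 CPM in the vehicle and 129 CPM in the AG-120 library. Its ratio of 2.67 (2.56 to 2.78) was above that of every other member; the gene lies at chr12:76255298-76319803 on the plus strand. The mitochondrial enzymes were all higher as well. Mthfd2 stood at 46.6 and 74.9 CPM (ratio 1.61, 1.54 to 1.68) and Mthfd1l at 33.5 and 58.2 CPM (ratio 1.74, 1.65 to 1.83). Shmt2, which takes the carbon unit from serine in mitochondria, stood at 88.7 and 146 CPM (ratio 1.65, 1.60 to 1.70). Its cytosolic counterpart Shmt1 stood at 39.1 and 33.8 CPM (ratio 0.865, 0.819 to 0.913) and stayed under the fold.

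Genes that feed or follow these routes were taken from 4 further lists of 53 genes, of which 41 were measured. Of these, 27 were higher in the AG-120 library (28.8% of all genes) and 7 lower (42.2%), at a median log2 ratio of 0.45. At 1.5-fold, 16 were higher (15.6%). The shares at 1.2-fold apply to the counts of each list below. All 5 measured genes of serine and glycine supply were higher, including Phgdh, which opens serine synthesis, with 268 and 327 CPM (ratio 1.22) and Gcsh of the glycine cleavage system with 61.0 and 133 CPM (ratio 2.18). In folate uptake and use 6 of 10 were higher and 2 lower. The folate carrier Slc19a1 had a ratio of 3.35 (3.14 to 3.57) and Fpgs, which adds the glutamate tail that retains folate, one of 3.31 (3.104 to 3.539). Ggh, which removes that tail, was 2.43-fold lower. Among 13 nucleotide kinases and pool enzymes 9 were higher and 2 lower, with ratios of 1.66 for Ak6 and 1.55 for Dtymk, while Dctpp1 stayed under the fold at 1.18. Among 13 purine salvage and exchange genes 7 were higher and 3 lower. Aprt had 2.45, Adk 2.17 and Pnp 1.98, and Hprt stayed under the fold at 1.18.

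Cells were next set apart by lineage transcripts. Each cell was thinned to 6500 UMIs, which 3553 vehicle and 3625 AG-120 cells allowed, and was placed in order in an erythroid (5 or more UMIs of that list), megakaryocyte (5 or more), granule (20 or more), Cd34 (1 or more) or remaining state. These states are ranges of marker transcripts and not cell types. The erythroid state held 105 vehicle cells (2.96%) and 3055 AG-120 cells (84.3%), or 8.23% and 87.8% without thinning. Within 2 UMIs of the erythroid threshold lay 217 vehicle and 463 AG-120 cells. The granule state held 703 and 262 cells, the Cd34 state 1583 and 39, and the remaining state 748 and 262. The megakaryocyte state held 414 and 7 cells and was not compared. The 30 enzymes together gave a mean of 22.0 UMIs per thinned vehicle cell and 32.3 per thinned AG-120 cell, and a median of 11 and 14 of them were seen in a cell.

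In all 4 states more members were higher in the AG-120 library than lower, at a smaller median than over all cells. In the erythroid state 16 of 30 were higher (21.8% of all measured genes there) and 3 lower (36.8%), at a median log2 ratio of 0.31. In the granule state 12 of 29 were higher (23.0%) and 1 was lower (28.2%), with a median of 0.20. In the Cd34 state 14 of 30 were higher (23.2%) and 2 were lower (35.3%), with a median of 0.19; with only 39 AG-120 cells, 10 of the 14 had an interval clear of 1. In the remaining state 19 of 29 were higher (24.1%) and 2 were lower (35.0%), with a median of 0.35.

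**Figure D2:**
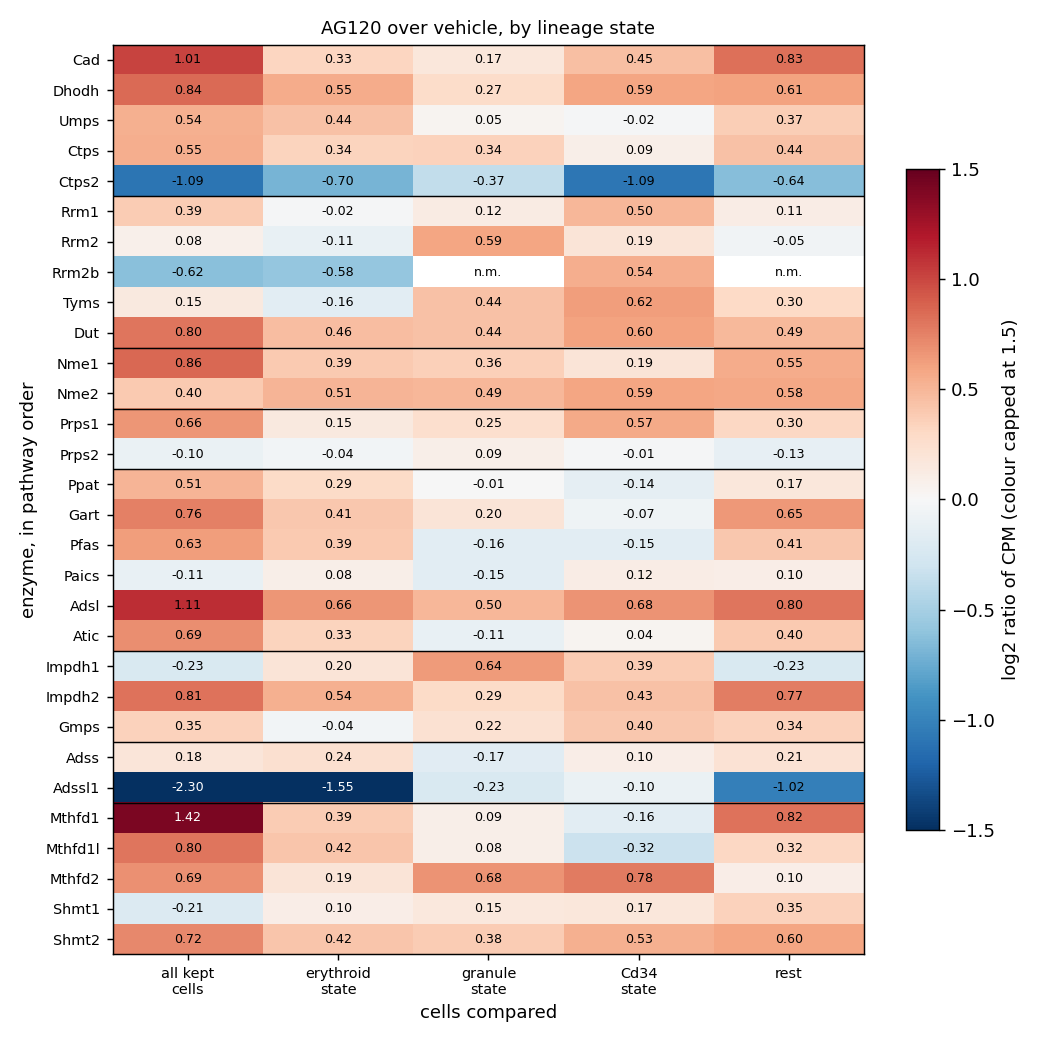
Log2 ratio of CPM, AG-120 over vehicle, for each enzyme in pathway order (rows) in all kept cells and in each of 4 lineage states (columns); colour is capped at 1.5 in either direction and n.m. marks a gene under 200 UMIs. Adsl, Dut, Nme2, Impdh2, Shmt2 and Dhodh are higher in every state, and Ctps2 is lower in every state.

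Of 29 members measured in all 4 states, 6 were higher by 1.2-fold or more in each (6.35% of all genes), namely Dhodh, Dut, Nme2, Adsl, Impdh2 and Shmt2. The intervals of Dhodh included 1 in the granule (0.989 to 1.47) and Cd34 (0.910 to 2.35) states, and its log2 ratio in the remaining state was −0.00095 with an erythroid threshold of 3 UMIs. Adsl had ratios of 1.58 (1.39 to 1.81) in the erythroid, 1.41 (1.28 to 1.56) in the granule, 1.60 (1.24 to 2.03) in the Cd34 and 1.74 (1.56 to 1.95) in the remaining state. Nme2 lay between 1.41 and 1.51 in all of them. Ctps2 was the only member lower in each state, as 11.8% of all genes were. It stood at 25.9 CPM in the vehicle and 15.9 CPM in the AG-120 library in the erythroid state, at 36.1 and 27.8 in the granule, 36.3 and 17.1 in the Cd34 and 37.7 and 24.2 in the remaining state. Paics, Prps2 and Adss passed the fold in none of the 4.

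The differences of Mthfd1 and Adssl1 were smaller inside each state than over all cells. Mthfd1 stood at 105 CPM in the vehicle and 138 CPM in the AG-120 library in the erythroid state, a ratio of 1.31 (1.15 to 1.49). In the granule state it stood at 52.6 and 56.1 CPM (ratio 1.07, 0.931 to 1.22), and in the Cd34 state at 45.0 and 40.3 CPM (ratio 0.895, 0.582 to 1.32). In the remaining state it stood at 44.0 and 77.5 CPM (ratio 1.76, 1.53 to 2.02), where the difference was larger than in the other states. Erythroid-state cells held more Mthfd1 than granule and Cd34 cells in either library. Adssl1 had the opposite pattern. It stood at 89.8 and 76.4 CPM in the granule state (ratio 0.851, 0.761 to 0.9504) and at 17.4 and 5.93 CPM in the erythroid state, lower under AG-120 by 2.94-fold (2.06 to 4.07). In the Cd34 state it stood at 51.4 and 48.0 CPM (ratio 0.934, 0.632 to 1.33). In the remaining state it stood at 46.1 and 22.7 CPM, a level 2.03-fold lower under AG-120 (1.65 to 2.52).

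The granule states of the libraries were not alike in other markers. Their cells held a mean of 54.9 granule list UMIs in the vehicle and 96.2 in the AG-120 library, and of 13.2 and 24.5 neutrophil list UMIs. The list of basophil, mast cell and eosinophil genes gave 3.60 and 21.8 UMIs. The remaining states differed as well. Their cells held a mean of 0.854 erythroid list UMIs in the vehicle and 2.61 in the AG-120 library, and of 39.9 and 25.9 neutrophil list UMIs. The part of these differences in the granule and remaining values was not tested.

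The vehicle cells of the erythroid state lay nearer to its edge than the AG-120 cells. They held a mean of 8.30 UMIs of the erythroid list, against 12.7 in the AG-120 cells, and 57 of the 105 held only 5 or 6. Of the 105, 29 also reached the megakaryocyte threshold. Mitosis genes gave a mean of 24.2 and 14.5 UMIs in these vehicle and AG-120 cells, and S phase genes 26.1 and 25.7. With a threshold of 10 erythroid UMIs, 7 members were higher in place of 16, a share close to that of all genes (23.1%). The log2 ratio of Mthfd1 was then −0.19 in place of 0.39. A threshold of 3 left 9 members higher in the remaining state in place of 19 (21.4% of all genes). With the 75 vehicle and 3031 AG-120 erythroid cells that stayed under all other thresholds, 8 members were higher (21.4% of all genes). That share, too, was close to the background, and this alternative was added after the data were seen.

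Within each library, erythroid-state cells were set against each other state, which gave 6 comparisons. In the vehicle library 12 of 29 members were higher in erythroid than in granule cells (36.9% of all genes), 19 of 30 than in Cd34 cells (32.8%) and 18 of 29 than in remaining cells (26.8%). The AG-120 library gave 15 of 30 (35.4%), 14 of 30 (38.0%) and 16 of 30 (20.7%). The numbers lower were 6 (24.8%), 5 (29.2%) and 3 (26.5%) in the vehicle and 7 (28.4%), 7 (32.8%) and 4 (29.4%) in the AG-120 library. The share of members higher than in granule cells of the vehicle library was close to the background. Cad, Dut, Nme1, Adsl, Atic and Mthfd1 were higher in all 6 comparisons (9.61% of all genes), and Adssl1 was lower in all 6 (10.4%). Ctps2, Impdh1 and Shmt1 were lower in 5 of the 6. In the AG-120 library Mthfd1 was 2.46-fold higher (2.20 to 2.75) in erythroid than in granule cells, and Impdh1 stood at 23.1 against 64.6 CPM. The states compared also differed in mitosis genes, with a mean of 24.2 UMIs in vehicle erythroid cells. Granule, Cd34 and remaining cells of that library held 8.65, 8.67 and 16.8. For the AG-120 library the means were 14.5 in erythroid and 13.0, 11.4 and 16.0 in those other cells. The part of this in the comparisons was not tested.

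Within the erythroid state of the AG-120 library, the enzymes, like all measured genes, varied little with Car1, which encodes an erythroid carbonic anhydrase. Of 30 members 0 were higher in the 2108 cells with a Car1 UMI than in the 947 without (1.37% of all genes) and 1, Adssl1, was lower (4.28%). These shares were close to the background. The median log2 ratio was 0.01, beside −0.01 over all measured genes. Mthfd1 stood at 136 CPM without and 139 CPM with Car1, and Adsl at 157 and 160 CPM.

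For several enzyme pairs the share of UMIs that fell to each isozyme also differed. Ctps held 51.0% (49.4 to 52.5, exact Clopper-Pearson) of the UMIs of Ctps and Ctps2 in the vehicle library and 76.2% (75.2 to 77.2) in the AG-120 library. Adss held 65.3% of the UMIs of Adss and Adssl1 in the vehicle and 91.4% in the AG-120 library. The corresponding shares were 61.3% and 72.8% for Prps1 of both PRPP synthetases, and 69.2% and 81.2% for Shmt2 of both serine hydroxymethyltransferases. Impdh2 held 91.7% and 95.7% of the IMP dehydrogenase UMIs, and Rrm2 94.4% and 96.4% of the small subunit UMIs. How well the transcripts of each isozyme were captured and mapped was not tested, so only changes of a share between libraries or states are described.

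**Figure D3:**
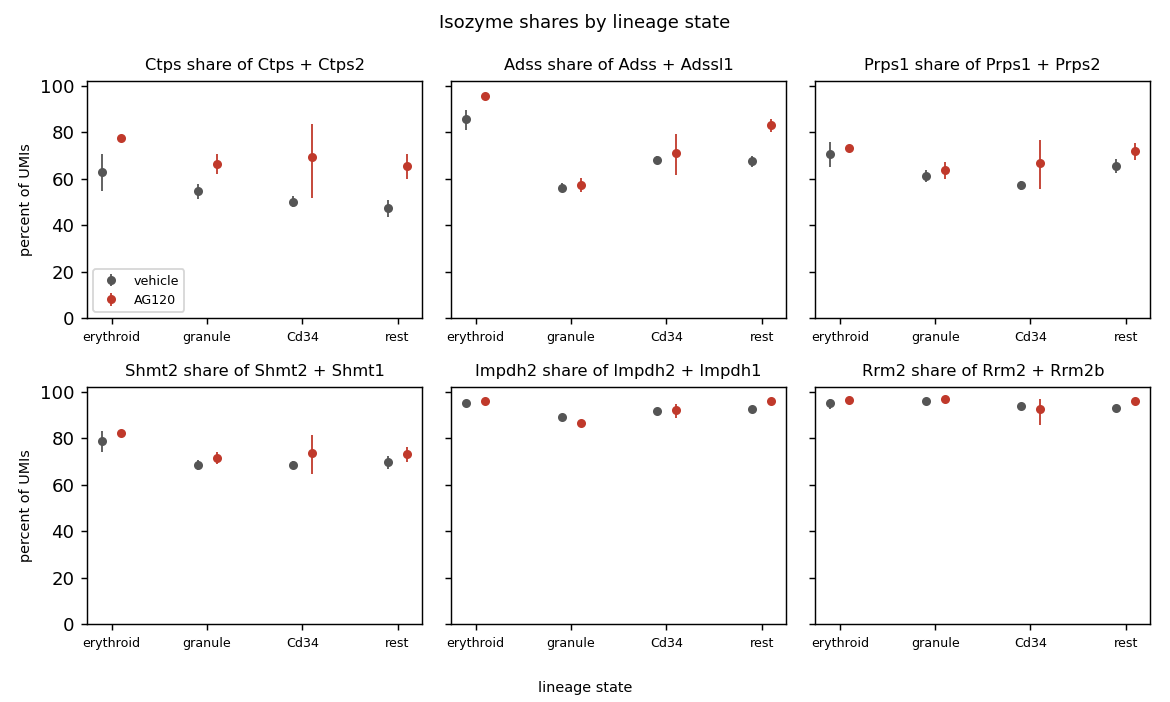
Share of UMIs held by the named isozyme of each pair (per cent, axis from 0) in 4 lineage states of the vehicle and AG-120 libraries; bars are exact 95% binomial intervals. The Adss share is close to equal in granule cells of both libraries and is highest in erythroid cells, while the Ctps share is higher in the AG-120 library in each state.

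In the granule state Adss held 56.2% of its pair in the vehicle (54.3 to 58.1) and 57.3% in the AG-120 library (54.3 to 60.3), so the intervals overlap. In the erythroid state it held 85.8% (81.1 to 89.7) and 95.4% (95.03 to 95.82). The Ctps share went from 54.5% to 66.4% in the granule, from 62.8% to 77.7% in the erythroid and from 47.2% to 65.4% in the remaining state. In the granule state Impdh2 had 89.0% in the vehicle (88.1 to 89.9) and 86.4% in the AG-120 library (85.1 to 87.7), the opposite of its direction over all cells.

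Mki67 marks cycling cells, and its level was nearly equal in both libraries, at 219 CPM in the vehicle and 225 CPM in the AG-120 library. At least 1 Mki67 UMI was present in 36.2% of the thinned vehicle cells (34.6 to 37.8) and 61.0% of the thinned AG-120 cells (59.4 to 62.6), or in 42.4% and 82.9% without thinning. The part of free RNA in this call was not tested.

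In the vehicle library 10 of 30 members were higher in Mki67-positive than in Mki67-negative cells by 1.2-fold or more (19.6% of all genes) and 2 were lower (16.7%). Rrm2 stood at 75.7 CPM in negative and 243 CPM in positive cells, 3.21-fold higher (3.06 to 3.37). Mthfd2 stood at 28.7 and 72.3 CPM (2.52-fold, 2.32 to 2.73), Tyms at 119 and 286 CPM (2.41-fold) and Rrm1 at 87.6 and 197 CPM (2.25-fold). These 4 had the largest differences among the members. Cad, Mthfd1l, Pfas, Dut, Mthfd1 and Prps1 were higher by log2 ratios of 0.32 to 0.72, and Rrm2b and Adssl1 were lower. With thinned UMIs 16 members were higher (23.5% of all genes). Among the vehicle cells of the Cd34 state, 15 of 29 were higher (20.1%) and 0 were lower (16.6%). Rrm2 there stood at 61.2 and 268 CPM.

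In the AG-120 library only 2 of 30 members, Cad and Tyms, were higher in Mki67-positive cells (6.99% of all genes, a share close to that of the members), and Adssl1 was lower (8.69% of all genes). Tyms stood at 182 CPM in negative and 223 CPM in positive cells (ratio 1.23, 1.19 to 1.26). Rrm2 stood at 159 and 151 CPM (ratio 0.953, 0.922 to 0.986). With thinned UMIs 5 members were higher (10.1% of all genes). Over all genes, too, fewer passed the fold than in the vehicle library. The Mki67-negative cells of the libraries are not alike in other cycle genes. They held a mean of 2.43 mitosis list UMIs in the vehicle and 8.65 in the AG-120 library, and Mki67-positive cells 29.1 and 18.3.

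**Figure D4:**
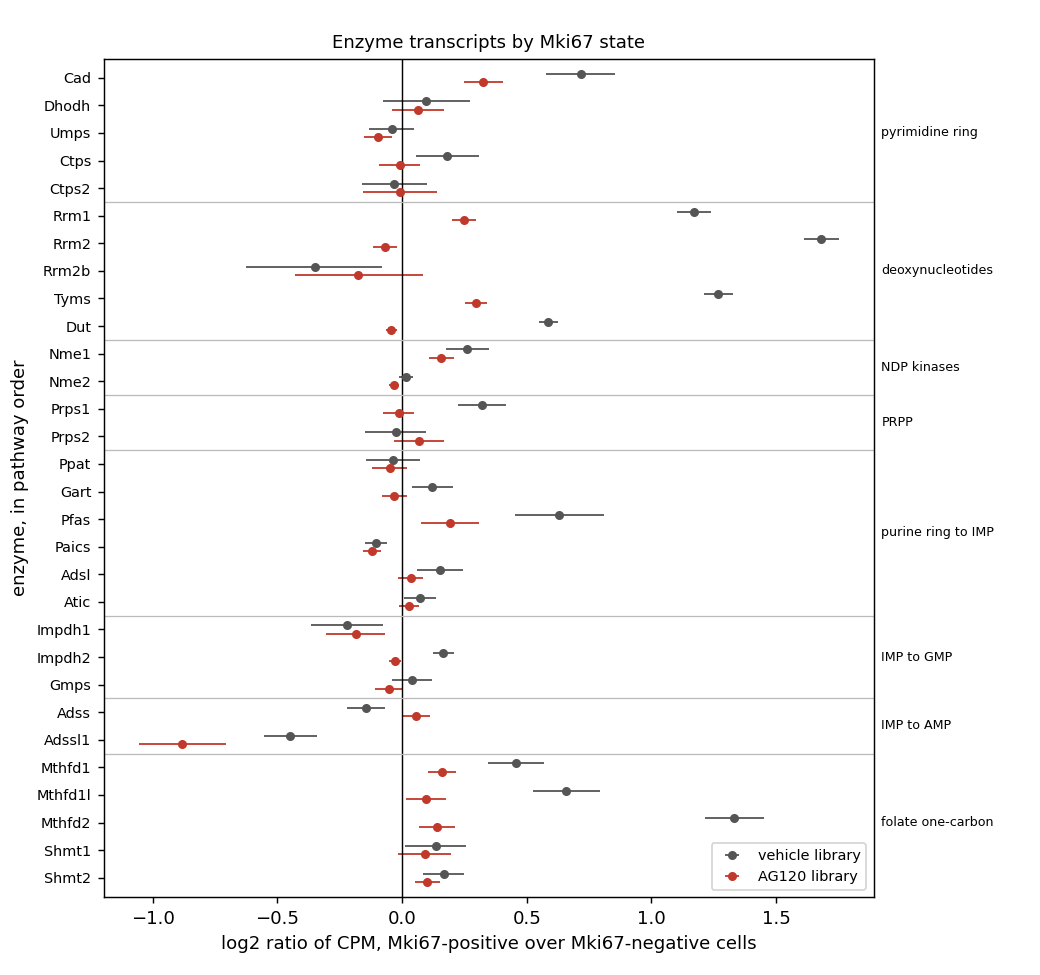
Log2 ratio of CPM, Mki67-positive over Mki67-negative cells, for each enzyme in pathway order within the vehicle and within the AG-120 library; bars are 95% intervals. Rrm2, Mthfd2, Tyms and Rrm1 lie above 1 in the vehicle library, and in the AG-120 library they lie between −0.07 and 0.30.

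Set across libraries, 19 of 30 members were higher in the AG-120 library among Mki67-positive cells (27.4% of all genes) and 6 lower (43.7%), at a median log2 ratio of 0.40. Among Mki67-negative cells 22 were higher (31.1%) and 3 were lower (41.5%), with a median of 0.71. Impdh2 was higher in both, at 354 and 575 CPM in positive cells (ratio 1.62) and 315 and 586 CPM in negative cells (ratio 1.86). Rrm2 went opposite ways. In Mki67-positive cells it was lower under AG-120 by 1.60-fold (1.55 to 1.66), and in Mki67-negative cells it was 2.10-fold higher (2.00 to 2.21). Tyms was 1.28-fold lower (1.24 to 1.32) in positive and 1.53-fold higher (1.47 to 1.59) in negative cells.

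Inside single lineage states the Mki67 contrast could be made for fewer genes. In the vehicle library 8 of 16 members were higher in Mki67-positive erythroid cells (28.0% of all genes) and 0 lower (15.5%), with only 31 Mki67-negative cells there. In megakaryocyte cells 6 of 25 were higher (21.1%) and 5 lower (13.7%), in granule cells 9 of 29 (19.0%) and 1 (8.98%), and in remaining cells 7 of 27 (19.8%) and 3 (14.7%). In the AG-120 library 2 of 30 were higher in erythroid cells (7.17%) and 1 lower (3.67%). In its granule cells 5 of 26 were higher (9.43%) and 1 lower (5.25%), and in its remaining cells 8 of 22 (17.4%) and 0 (11.1%). The share of members higher was close to the background in megakaryocyte cells of the vehicle library and in erythroid cells of the AG-120 library.

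With lineage and Mki67 state both held, all 7 contrasts between the libraries had more members higher than lower. Among Mki67-positive cells 15 of 30 were higher in the erythroid state of the AG-120 library (22.4% of all genes) and 4 lower (34.3%), and 16 of 26 in the remaining state (26.3%) and 3 (33.6%). In granule cells 6 of 28 were higher (23.6%) and 3 lower (26.7%), a share close to the background. Among Mki67-negative cells 20 of 29 were higher in the erythroid state (32.6%) and 3 lower (36.2%), 16 of 29 in the granule state (26.9%) and 1 (26.6%), 15 of 29 in the Cd34 state (26.5%) and 1 (36.3%), and 15 of 25 in the remaining state (28.2%) and 3 lower (1366 of 4546 genes).

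For a finer view, cells were divided by the summed UMIs of 37 S phase genes and 28 mitosis genes that hold no member, at the medians of both libraries together (24 and 8 UMIs). Cells low for both numbered 1427 in the vehicle and 477 in the AG-120 library. Cells with high S phase and low mitosis sums numbered 991 and 853, cells high for both 522 and 1073, and cells with high mitosis sums alone 613 and 1222. In the vehicle library 27 of the 30 members had their highest level in a set with high S phase sums, and in the AG-120 library 25 had. Of all measured genes 39.5% and 45.1% had. The exceptions in the vehicle library were Ctps2, Rrm2b and Adssl1, each highest in the cells low for both.

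Against the cells low for both, 25 of 30 members were higher in vehicle cells with high S phase and low mitosis sums (22.6% of all genes), 25 in cells high for both (29.9%) and 12 in cells with high mitosis sums alone (25.3%). The numbers lower were 0 (22.5%), 2 (28.2%) and 7 (21.3%). For the AG-120 library the numbers higher were 15 of 29 (11.5%), 18 of 30 (21.8%) and 11 of 30 (18.3%), and those lower 1 (8.55%), 2 (17.0%) and 2 (15.4%).

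**Figure D5:**
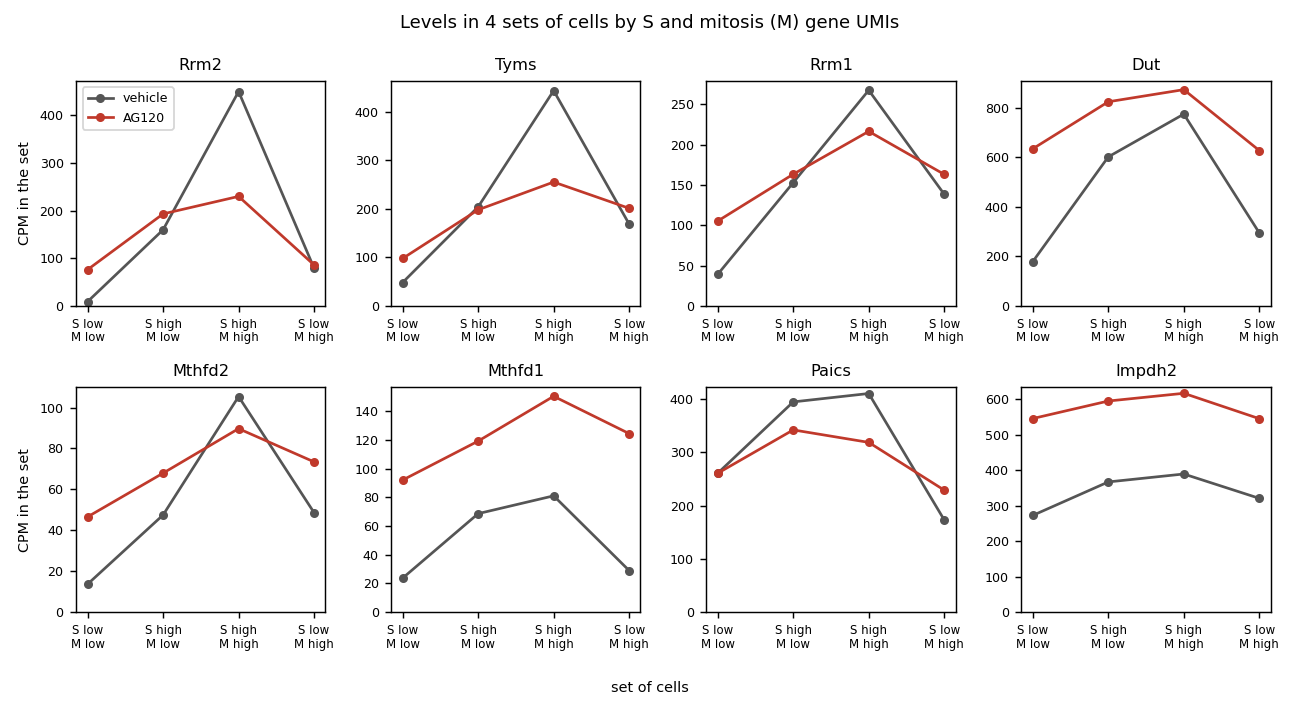
Level in CPM (axes from 0) of selected enzymes in 4 sets of cells by S phase and mitosis gene sums, for the vehicle and AG-120 libraries, drawn without intervals. Rrm2 and Tyms peak at 449.6 and 443.9 CPM in vehicle cells high for both sums, and reach 229.8 and 255 CPM in the same set of the AG-120 library.

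Rrm2, whose promoter is printed above, had the widest range of all members in the vehicle library. It stood at 9.11 CPM in vehicle cells low for both sums, 159.7 in those with high S phase sums alone, 449.6 in those high for both and 79.3 in those with high mitosis sums alone. The highest level was 49.3 times the lowest. The same sets of the AG-120 library held 76.2, 193, 229.8 and 86.1 CPM, a range of 3.02-fold. In cells low for both, Rrm2 was thus higher under AG-120 by 8.36-fold (7.005 to 10.02), and in cells high for both it was 1.96-fold lower (1.88 to 2.03).

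Tyms stood at 48.4, 204, 444 and 169 CPM across those sets in the vehicle library and at 98.0, 198, 255 and 201 CPM in the AG-120 library. Its range was 9.17-fold in the former and 2.61-fold in the latter. Mthfd2, which supplies mitochondrial folate carbon, ranged 7.71-fold and 1.93-fold, and Rrm1 6.82-fold and 2.06-fold. Over all members, the highest level was a median of 2.13 times the lowest in the vehicle and 1.34 times in the AG-120 library. It was wider in the vehicle library for 28 of the 30, all but Ctps2 and Adssl1, and for 75.9% of all genes, whose medians were 1.39 and 1.24 times. The sets are not equal between the libraries. Vehicle cells low for both held a mean of 10.5 S phase and 0.982 mitosis UMIs and AG-120 cells 16.7 and 3.47, and 1.33% and 78.0% of them were in the erythroid state. The part of these differences in the enzyme ranges was not tested.

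Set by set, 23 of 30 members were higher in the AG-120 library in cells low for both sums (32.0% of all genes) and 3 were lower (40.3%). With high S phase sums alone 16 were higher (27.6%) and 5 lower (37.8%). In cells high for both 12 were higher (29.4%) and 10 lower (40.2%), and with high mitosis sums alone 23 were higher (30.1%) and 3 lower (42.7%). The median log2 ratio went from 0.94 in cells low for both to 0.17 in cells high for both. There were 11 members higher in all 4 sets (19.4% of all genes), namely Cad, Dhodh, Nme1, Prps1, Gart, Adsl, Atic, Impdh2, Gmps, Mthfd1 and Shmt2. Of these, Gart, Adsl and Atic act in the purine ring, and Impdh2 and Gmps lead on to GMP. Ctps2, Rrm2b and Adssl1 were lower in all 4 (28.1% of all genes).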

How the data were processed

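Single-cell RNA was measured in 2 libraries, 1 vehicle and 1 AG-120, grouped by the sample titles. The authors worked with Cell Ranger 3.1.0, Seurat 4.0.4 and mm10/GRCm38, per the submitters' processing notes. The deposited matrices hold raw UMI counts, whole numbers per gene and barcode without normalization, per the file headers. The labels' protocol names a 5′ kit and the design text a 3′ platform. Kept cells had 500 or more genes and up to 10% mitochondrial UMIs. No doublet caller was run; 5% of cells with the most UMIs were left out as an alternative. UMIs were summed per group of cells and scaled to CPM. Ratios carry exact conditional binomial 95% intervals (scipy 1.17.1), CPM Poisson intervals. A gene was measured at 500 UMIs (200 in subsets) over both groups and described as higher or lower at 1.2-fold, which is no test. Depth sets the width of these intervals and the share of cells with a UMI, so states and Mki67 were called on thinned cells. Of each further list the 4 genes with the most UMIs could be named; 2 of these are not reported here. The members, lists, thresholds and alternatives were chosen with earlier results of these data known. Scripts were tested on simulated data. Gene positions come from GENCODE mouse release 21 and promoters from RefSeq (GRCm38.p6).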

Additional observations from a re-analysis of the deposited data

Results flagged for a closer look

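Rrm2 and Tyms had opposite directions in Mki67-negative and Mki67-positive cells. The log2 ratio of AG-120 over vehicle for Rrm2 was 1.07 in Mki67-negative and −0.68 in Mki67-positive cells. For Tyms it was 0.61 in Mki67-negative and −0.36 in Mki67-positive cells. With 1 library per treatment the difference between these ratios was not tested.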

How the results depend on the processing

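Of 55 counts recomputed under alternatives, 47 stayed within 1.5 times the main value. Of 39 medians over the members 22 moved by less than 0.05 in log2 and 17 by more; in the erythroid state they ran from 0.088 to 0.52, against 0.31. Of 1162 single-gene ratios 868 stayed within their interval, 285 moved further and 9 reversed; the cause was not tested. At 1.5-fold, 16 other pathway genes were higher (15.6% of all genes) in place of 27 (28.8%). Members lower over all cells fell from 3 to 1 with lineage and Mki67 states weighted together, where 3122 of 9419 genes were lower. Under that weighting 18 members were higher in place of 20, as were 2261 of 9419 genes. It was an alternative added after the data were seen. Members higher in the erythroid state were 7 with a threshold of 10 UMIs and 8 for cells under all other thresholds (also added), in place of 16. Both counts were close to the shares of all genes (23.1% and 21.4%). Those in the remaining state were 9 (21.4% of all genes) in place of 19 (24.1%) when the erythroid threshold was 3 UMIs. Members higher in Mki67-positive cells were 16 (23.5% of all genes) in place of 10 (19.6%) in the vehicle library with thinned UMIs. In the AG-120 library they were 5 with thinned UMIs (10.1% of all genes), in place of 2 (6.99%). With an Mki67 threshold of 2 there was 1, without a share over all genes to set beside it. With lineage-state weights the log2 ratio of Rrm2b was 0.15, of Ppat −0.0059 and of Mthfd1l −0.0089. At the erythroid threshold of 10, in that state, Ctps had −0.11, Rrm2b 0.47, Gart −0.079 and Mthfd1 −0.19. At 3, in the remaining state, Dhodh had −0.00095 and Mthfd1l −0.17. No paired analysis was possible because each treatment has 1 library.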
